A study of Mus musculus with 36 samples.

Results

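The genes described here are 10 that act on newly made collagen: the prolyl 4-hydroxylase alpha subunits P4ha1, P4ha2 and P4ha3, the lysyl hydroxylases Plod1, Plod2 and Plod3, the lysyl oxidases Lox, Loxl1 and Loxl2, and Serpinh1, which encodes the collagen chaperone HSP47. They were chosen by symbol, with earlier results of these data known. All 10 were found among the 36856 gene symbols of the count table and passed the filter on low counts. Expression was measured by bulk RNA sequencing in 36 libraries of fibroblasts cultured from mouse embryos (MEF). The cells were WT or PERK -/-, that is, without the kinase PERK that is activated by unfolded protein in the endoplasmic reticulum (ER). Each genotype received 1 of 6 treatments in 3 replicates: DMSO, which is the solvent and served as control, BtdCPU, halofuginone, thapsigargin (Tg), or thapsigargin combined with either of the other compounds. Neither a dose, a treatment time, a batch nor a number of independent lines per genotype is given in the labels, so p-values measure only the spread between these libraries, which may be technical, and any difference between the 2 genotypes cannot be told apart from a difference between cell lines.

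Procollagen chains are modified while they fold in the ER. Prolyl 4-hydroxylase, built of a catalytic alpha subunit and the shared beta subunit P4hb, makes the 4-hydroxyproline that keeps the triple helix stable, and the lysyl hydroxylases make the hydroxylysine that later takes part in crosslinks; both kinds of enzyme need oxygen, iron, ascorbate and 2-oxoglutarate. HSP47 binds the folded triple helix and escorts it out of the ER. Lysyl oxidases act outside the cell, where they oxidise lysine side chains of collagen and elastin so that fibres can crosslink. Thapsigargin empties the ER of calcium and provokes the unfolded protein response, in which PERK is 1 of the sensors. BtdCPU activates HRI and halofuginone, by inhibiting the prolyl-tRNA synthetase, activates GCN2; both kinases phosphorylate eIF2α as PERK does. The title of the series concerns activation of another kinase of this integrated stress response in PERK-deficient cells, and the comparisons describe the collagen-modifying genes in that setting.

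Library totals ran from 32454257 to 37178107 counts, and a library had 13251 to 14499 genes with 10 or more counts. The PERK gene, Eif2ak3, stood at 30.3, 32.4 and 30.7 counts-per-million (CPM, scaled by TMM) in the WT DMSO libraries and at 9.37, 9.67 and 10.8 in the PERK -/- DMSO libraries, so transcripts counted for it were lower but still present in PERK -/- cells; the labels do not say which part was deleted. All 10 fibroblast markers had a mean of at least 1 CPM in every group, with sums of 13854 to 39326 CPM per library. The sums of 5 epithelial, 4 endothelial and 3 measured leukocyte markers reached at most 29.0, 5.33 and 22.9 CPM. No pair of libraries in a group agreed within sampling noise (lowest chi-square per degree of freedom 9.06). In bulk RNA, fewer cells of a type and less RNA per cell cannot be told apart.

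For 3 of the genes, some of the reads may belong to other genes. Loxl2 moved in step with Gm21451, an unprocessed pseudogene near it in the GENCODE M21 annotation, whose count was 72.4% to 87.9% of that of Loxl2 over the 36 libraries, and with Gm3579 at 12.3% to 40.2%, so how reads were divided among these genes is uncertain and so is the level of Loxl2. Plod2 had fractional counts in all 36 libraries, and its sum with the overlapping gene B430319G15Rik, at 5.74% to 11.8% of the Plod2 count, was whole to within 0.0015 in all 36. Plod3 overlaps Znhit1, whose count was 11.5% to 24.2% of that of Plod3. Gm27177, which overlaps Loxl2, had 0.290% to 9.19% of its count.

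Promoters of 4 genes are shown because P4ha1, P4ha2, Plod1 and Serpinh1 rose with thapsigargin in PERK -/- cells and fell with halofuginone in both genotypes. The RefSeq table (GRCm38.p6) held a promoter for 6 of the 10 genes: P4ha1, P4ha2, P4ha3, Plod1, Plod3 and Serpinh1. The lines that follow give the 250 bases before the start of the gene, 5′ to 3′ on the strand of the gene. Capitals mark the motifs described after the sequences.
P4ha1, chr10:59323046-59323295, plus strand: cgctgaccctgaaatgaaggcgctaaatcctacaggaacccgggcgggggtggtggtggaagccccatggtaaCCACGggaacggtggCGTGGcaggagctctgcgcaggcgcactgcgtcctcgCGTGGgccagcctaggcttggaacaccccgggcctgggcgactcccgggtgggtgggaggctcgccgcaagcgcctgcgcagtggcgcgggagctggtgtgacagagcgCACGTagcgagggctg
P4ha2, chr11:54100674-54100923, plus strand: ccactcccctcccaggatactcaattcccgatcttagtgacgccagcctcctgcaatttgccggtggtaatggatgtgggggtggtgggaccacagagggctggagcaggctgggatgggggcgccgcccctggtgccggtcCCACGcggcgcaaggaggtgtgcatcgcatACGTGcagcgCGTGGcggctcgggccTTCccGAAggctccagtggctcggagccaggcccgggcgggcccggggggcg
Plod1, chr4:147936777-147937026, minus strand: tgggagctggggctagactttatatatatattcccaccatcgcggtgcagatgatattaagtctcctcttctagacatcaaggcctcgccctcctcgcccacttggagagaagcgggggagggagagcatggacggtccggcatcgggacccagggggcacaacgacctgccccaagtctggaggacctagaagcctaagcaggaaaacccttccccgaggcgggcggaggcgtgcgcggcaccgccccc
Serpinh1, chr7:99353240-99353489, minus strand: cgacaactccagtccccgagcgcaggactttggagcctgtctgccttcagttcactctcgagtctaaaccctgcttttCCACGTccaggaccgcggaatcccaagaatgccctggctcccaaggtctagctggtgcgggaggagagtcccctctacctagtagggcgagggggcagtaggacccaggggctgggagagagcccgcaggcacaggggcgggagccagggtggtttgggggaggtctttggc

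Both strands were searched from 250 bases before to 50 bases after the start for the hypoxia response core ACGTG, which occurs in 19.6% of 32851 promoters of this length. The P4ha1 promoter held it at -16, counted from the gene's start to the first base of the match, the P4ha2 promoter at -78 and again past the start, the Serpinh1 promoter at -171 and the Plod3 promoter at -54, and the Plod1 window held none. CCACG, the last letters of the ER stress response element, occurs in 32.8% of promoters. It was found in P4ha1 at -177, -162 and -125, in P4ha2 at -108 and -68, and in Serpinh1 at -172, where it shares 4 bases with ACGTG on the other strand. Further CCACG matches lay past the start of P4ha2, Serpinh1 and Plod1, that of P4ha2 overlapping ACGTG, and the Plod1 promoter had no CCACG before the start. A heat shock element, GAANNTTC or TTCNNGAA, is held by 15.1% of promoters. It was found in P4ha2 at -52 and in Plod1 past the start, and not in the Serpinh1 window. The whole ER stress response element, CCAAT and CCACG with 9 bases between, is held by 0.119% of promoters, the unfolded protein response core TGACGTG by 2.01% and the amino acid response element TGATGNAAT by 0.965%. None of these last 3 was found in the 6 windows. These are matches of letters in 1 window per gene and not measured binding sites.

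Among the 10 genes Serpinh1 was the most abundant per length. In WT DMSO libraries it reached 504 ± 40.2 CPM per kilobase of exon (mean ± SD, n = 3), beside 104 ± 12.5 for Loxl1, 66.8 ± 6.49 for Plod3, 55.6 ± 7.9996 for Lox and 48.5 ± 7.91 for P4ha1. Loxl2, P4ha3, Plod1, Plod2 and P4ha2 were lower, down to 9.79 ± 0.625 for P4ha2. The order of these depends on the exon length used: in CPM not divided by length, P4ha3 was 65.6, P4ha2 61.1 and Plod2 57.5. In PERK -/- DMSO libraries Serpinh1 stood at 322 ± 26.4 CPM per kilobase and Loxl2 was the lowest at 2.05 ± 0.255. Over the 12 groups the ratio of the highest to the lowest group mean was 1.64 for Plod3, the narrowest range, and 26.9 for Loxl2, the widest. It was 5.83 for P4ha2, 4.77 for P4ha3, 4.67 for Loxl1, 4.14 for Plod2, 3.21 for Serpinh1, 2.59 for Plod1, 2.52 for Lox and 2.18 for P4ha1. When the 12 groups were ordered by mean, 10 of the 11 neighbouring pairs had overlapping libraries for P4ha1, P4ha3, Plod3 and Lox, 9 for Plod1, 7 for Serpinh1, 6 each for Plod2, Loxl1 and Loxl2, and 4 for P4ha2.

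**Figure D1:**
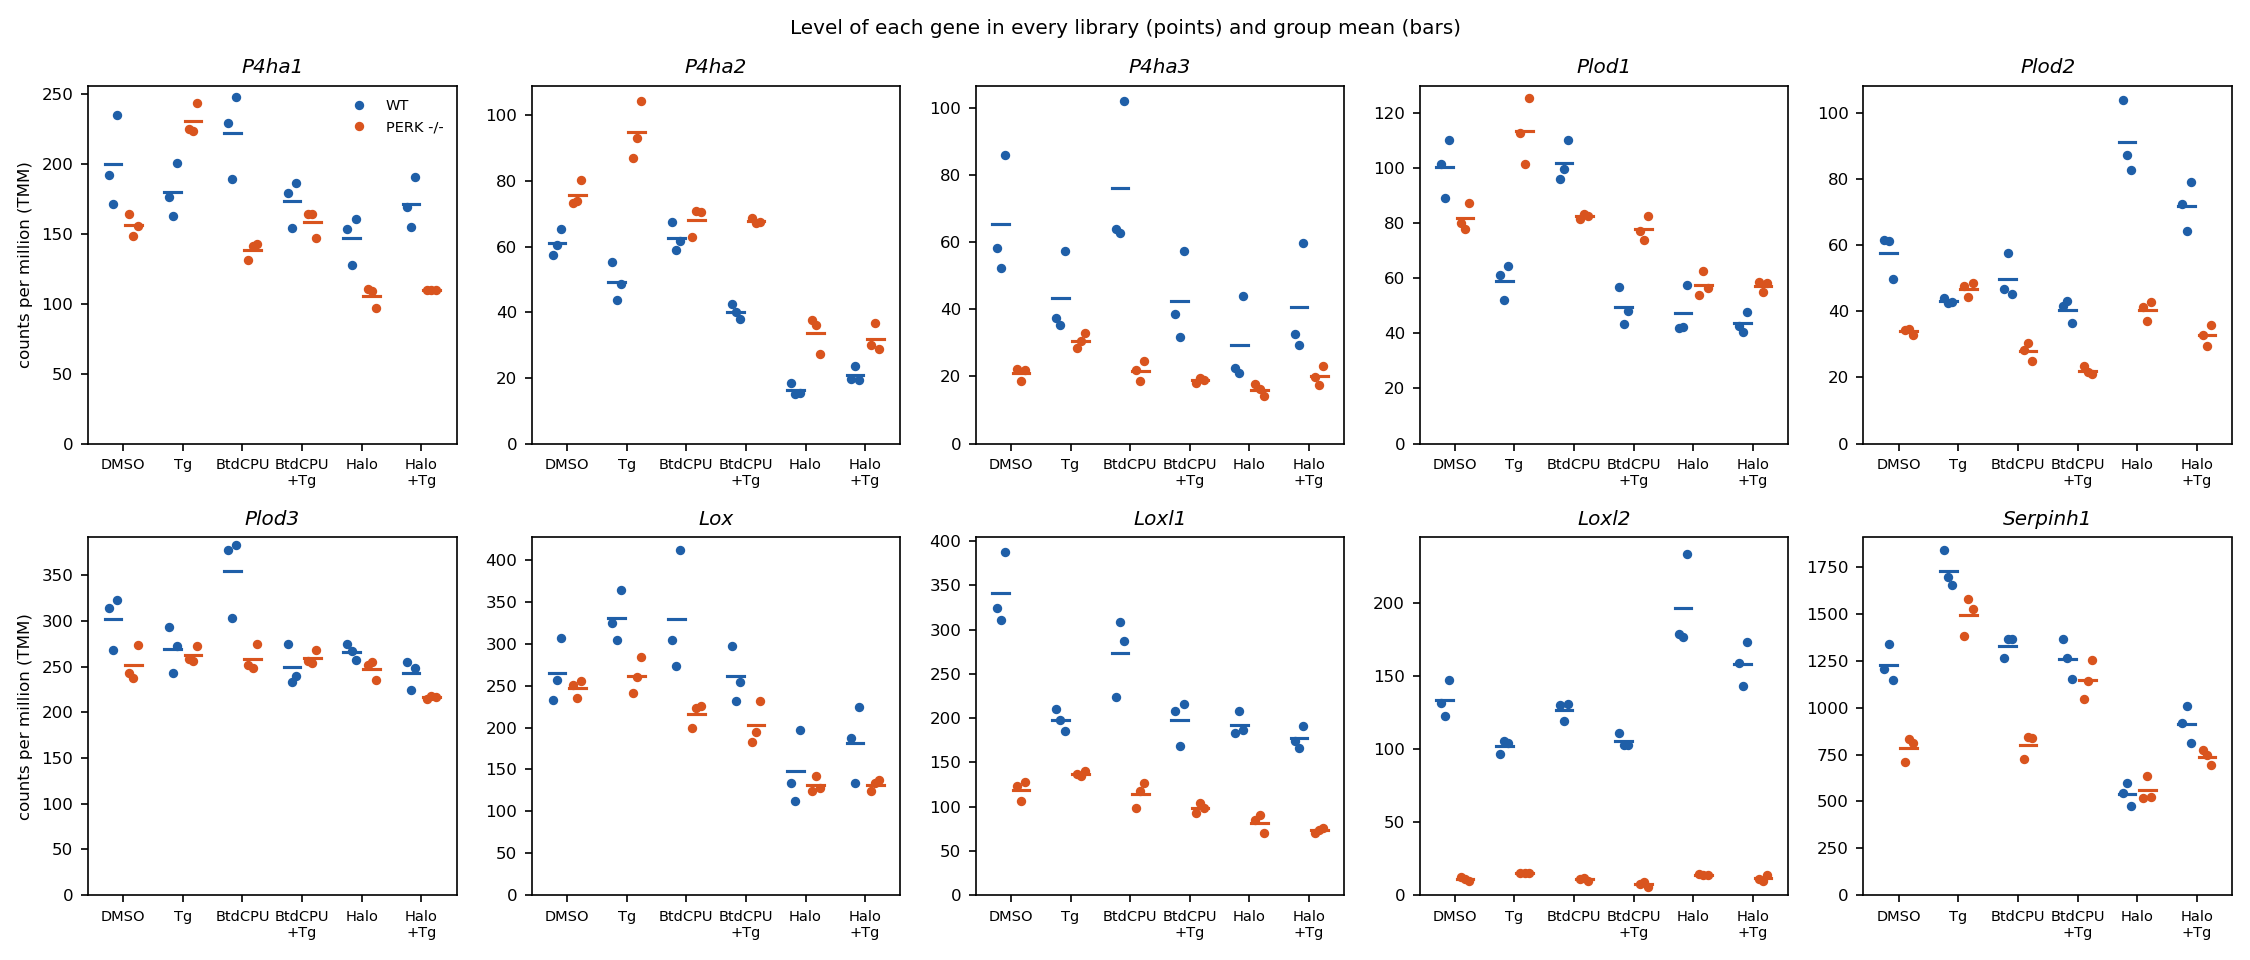
TMM-scaled CPM of each gene (vertical axis, from 0) in every library (points) with group means (bars), for the 6 treatments (horizontal axis) in WT (blue) and PERK -/- (orange) cells; Tg is thapsigargin and Halo is halofuginone. Loxl2 is lower in all 18 PERK -/- libraries than in all 18 WT libraries, P4ha2 is lowest with halofuginone, and Serpinh1 is highest with thapsigargin.

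In DMSO, PERK -/- cells carried less of 8 of the 10 genes than WT cells and more of 1, P4ha2. Over all tested genes 24.6% were called higher and 24.9% lower in this comparison (adjusted p below 0.05, edgeR quasi-likelihood test with Benjamini-Hochberg adjustment over 16065 genes, used throughout). Loxl2, a lysyl oxidase that acts on basement membrane collagen, was 132, 123 and 147 CPM in WT libraries and 12.6, 10.9 and 9.84 CPM in PERK -/- libraries, a log2 fold change (± SE) of -3.60 ± 0.13 (adjusted p = 4.63e-20). Gm21451, the pseudogene, gave -3.71 ± 0.11. Loxl1, the family member tied to elastic fibres, was 324, 311 and 388 CPM in WT and 124, 106 and 127 in PERK -/- cells, a log2 fold change of -1.52 ± 0.12 (adjusted p = 2.39e-12). For both genes every PERK -/- library lay below every WT library. Lox, the founding member of the family, gave -0.10 ± 0.17 (adjusted p = 0.636), with overlapping libraries.

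Of the prolyl 4-hydroxylase subunits, P4ha3 was 58.2, 52.5 and 86.1 CPM in WT and 22.4, 18.7 and 21.8 in PERK -/- DMSO libraries, a log2 fold change of -1.65 ± 0.26 (adjusted p = 4.79e-06). The WT library of replicate 3 was the highest for P4ha3 in each of the 6 WT groups. P4ha1, the main alpha subunit in most tissues, changed by -0.35 ± 0.11 (adjusted p = 0.00871) and P4ha2 by 0.31 ± 0.11 (adjusted p = 0.0224). Among the lysyl hydroxylases, Plod2, which hydroxylates the telopeptides, was 61.5, 61.4 and 49.7 CPM in WT and 34.4, 34.7 and 32.9 in PERK -/- libraries, with a log2 fold change of -0.76 ± 0.11 (adjusted p = 6.78e-07). Plod1, which acts on lysines of the helix, changed by -0.29 ± 0.11 (adjusted p = 0.031) and Plod3, which also adds sugar to hydroxylysine, by -0.26 ± 0.09 (adjusted p = 0.0158). Serpinh1 was 1207, 1339 and 1147 CPM in WT and 713, 832 and 815 in PERK -/- libraries, -0.65 ± 0.10 (adjusted p = 3.9e-06). Calls for the smaller differences were lost when certain libraries were left out, 1 at a time. For P4ha1 this was WT DMSO replicate 3 (-0.22). For P4ha2 it was PERK -/- DMSO replicate 3, or WT DMSO replicate 1 or 2 (0.26 to 0.30). For Plod1 it was PERK -/- DMSO replicate 1 or 2, or WT DMSO replicate 1 or 3 (-0.29 to -0.22). For Plod3 it was PERK -/- DMSO replicate 1 or 2, or WT DMSO replicate 1 or 3 (-0.24 to -0.21).

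Other genes of collagen biosynthesis were mostly lower in PERK -/- DMSO libraries as well. The lists used here and below were also chosen with earlier results of these data known, so they are not independent of the 10 genes. Of 29 tested genes of a list of collagen maturation (prolyl 3-hydroxylases, collagen cyclophilin and FKBP isomerases, export and propeptide-cleaving factors), 4 were called higher and 21 lower, with a median log2 fold change of -0.74 beside 0.02 over all tested genes. Unless stated otherwise, the genes named from this and the other lists are the largest called rise and fall among those averaging 2 or more in log2 CPM; genes below that level, some with larger changes, are counted but not named. Here they were the ascorbate transporter Slc23a2 at 1.01 ± 0.12 and the procollagen C-proteinase enhancer Pcolce2 at -3.20 ± 0.26. Of 10 tested fibrillar collagen chains, 1 was called higher, Col11a1 at 0.62 ± 0.19, and 7 lower, with Col27a1 at -1.95 ± 0.25. Of 16 hypoxia-inducible genes, 11 were called higher and 1 lower: Egln3, an oxygen-sensing prolyl hydroxylase of HIF that uses the same cofactors, gave 2.36 ± 0.23 and Egln1 -0.37 ± 0.12. Of 14 ER chaperones 2 were called higher and 3 lower, from Creld2 at 0.75 ± 0.14 to Manf at -0.50 ± 0.13. Of 12 targets of the heat shock factor HSF1 4 were called higher and 4 lower, from Hspa4l at 0.89 ± 0.12 to Hspb1 at -1.48 ± 0.23, and of 10 other 2-oxoglutarate oxygenases 4 higher and 3 lower, with Ogfod2 at -0.37 ± 0.13.

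Thapsigargin lowered P4ha2, Plod1, Plod2 and Loxl2 in WT cells and raised the same 4 genes in PERK -/- cells, while Serpinh1 rose in both. For P4ha2 and Loxl2 the calls in both genotypes were lost without certain single libraries, as given below. In WT cells 1 of the 10 genes was called higher, Serpinh1, and 5 were called lower, beside 24.9% and 22.7% of all tested genes. Without PERK 6 were called higher and 0 lower, beside 15.2% and 12.7%. All 10 values were positive there, in edgeR at any p and in DESeq2, with an edgeR median of 0.45 beside 0.05 over all tested genes. The share of all tested genes with a positive value was not counted. The difference between the responses, tested as an interaction, was called for 8 of the 10 genes, all with the higher response in PERK -/- cells, beside 19.5% of all genes called higher and 18.6% lower. All 3 comparisons draw on the same DMSO and thapsigargin libraries. The leukocyte markers summed to 6.86 to 9.74 CPM in PERK -/- DMSO and 10.9 to 16.3 in PERK -/- thapsigargin libraries, with Cd68 and Csf1r at 1 CPM or more and Ptprc below, beside 4.13 to 4.63 and 4.08 to 4.33 in WT; their part in the result was not tested.

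Plod1 showed the widest gap. Its libraries were 102, 89.0 and 110.1 CPM in WT DMSO and 61.0, 52.0 and 64.3 with thapsigargin, a log2 fold change of -0.76 ± 0.11 (adjusted p = 1.84e-06). Among PERK -/- libraries they were 80.0, 77.9 and 87.2 in DMSO and 113, 101.38 and 125 with thapsigargin, 0.47 ± 0.11 (adjusted p = 0.00187). The treated libraries thus lay below all controls in WT and above all controls in PERK -/- cells, and the interaction was 1.23 ± 0.16 (adjusted p = 3e-07). Plod2 had 61.5, 61.4 and 49.7 CPM in WT DMSO and 44.1, 42.4 and 42.8 with thapsigargin, -0.42 ± 0.11 (adjusted p = 0.00205). In cells lacking PERK Plod2 went from 34.4, 34.7 and 32.9 to 47.7, 44.5 and 48.5 CPM, 0.47 ± 0.11 (adjusted p = 0.00137), with an interaction of 0.88 ± 0.15 (adjusted p = 2.7e-05). Again no treated library overlapped the controls. Plod3 changed by -0.16 ± 0.09 (adjusted p = 0.14) in WT and 0.06 ± 0.09 (adjusted p = 0.676) in PERK -/- cells, with an interaction of 0.22 ± 0.13 (adjusted p = 0.174). With the replicate number as a block the WT and interaction values of Plod3 passed the threshold (-0.16, adjusted p = 0.034 and 0.23, adjusted p = 0.044).

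P4ha1 was called in PERK -/- cells, where it was 164, 148 and 155 CPM in DMSO and 225, 223 and 243 with thapsigargin, 0.56 ± 0.11 (adjusted p = 0.000214). In WT cells its libraries overlapped, at 192, 171 and 235 CPM in DMSO and 176, 163 and 200.4 with thapsigargin, -0.15 ± 0.11 (adjusted p = 0.279). The interaction for P4ha1 was 0.71 ± 0.16 (adjusted p = 0.000522). P4ha2 was 57.5, 60.4 and 65.2 CPM in WT DMSO and 55.4, 43.8 and 48.7 with thapsigargin, -0.31 ± 0.11 (adjusted p = 0.0261). For PERK -/- cells it was 73.2, 74.0 and 80.3 and 86.9, 93.2 and 104 CPM, 0.32 ± 0.11 (adjusted p = 0.0315), and the interaction was 0.63 ± 0.16 (adjusted p = 0.00218). P4ha2 was therefore below every control library in WT and above every control library in PERK -/- cells, by small margins. P4ha3 gave -0.59 ± 0.26 (adjusted p = 0.0578) in WT and 0.55 ± 0.26 (adjusted p = 0.119) in PERK -/- cells, and its interaction was 1.15 ± 0.37 (adjusted p = 0.0136). WT replicate 3 of P4ha3 was high in both groups, and with the replicate block both changes passed (-0.60, adjusted p = 4.5e-06 in WT and 0.55, adjusted p = 4.2e-05 in PERK -/- cells).

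Among the lysyl oxidases, Loxl1 fell in WT cells from 324, 311 and 388 to 211, 198 and 185 CPM, -0.79 ± 0.12 (adjusted p = 1.59e-06). Within PERK -/- cells it was 124, 106 and 127 in DMSO and 137, 135 and 139.9 with thapsigargin, 0.21 ± 0.12 (adjusted p = 0.197), and the interaction was 0.99 ± 0.16 (adjusted p = 1.38e-05). Loxl2 was 97.0, 106 and 105 CPM in WT thapsigargin libraries, -0.39 ± 0.12 (adjusted p = 0.00888), and 14.8, 15.1 and 14.95 in PERK -/- thapsigargin libraries, 0.43 ± 0.13 (adjusted p = 0.0113). The Loxl2 interaction was 0.82 ± 0.18 (adjusted p = 0.000402), and that of Gm21451 0.99 ± 0.16. Lox gave 0.32 ± 0.17 (adjusted p = 0.112) in WT and 0.08 ± 0.17 (adjusted p = 0.768) in PERK -/- cells and no called interaction, -0.24 ± 0.23 (adjusted p = 0.46); with the replicate block its WT value passed (0.32, adjusted p = 0.0088). Lox was the only one of the 10 apart from Serpinh1 with a positive WT value. Calls that ended when a library was left out were, in WT cells, P4ha2 without WT DMSO replicate 3, or WT thapsigargin replicate 2 or 3 (-0.30 to -0.26) and Loxl2 without WT DMSO replicate 3 (-0.32); in PERK -/- cells, P4ha2 without PERK -/- DMSO replicate 1, 2 or 3, or PERK -/- thapsigargin replicate 2 or 3 (0.20 to 0.33) and Loxl2 without PERK -/- DMSO replicate 3, or PERK -/- thapsigargin replicate 2 or 3 (0.31 to 0.39); and for the interaction, P4ha3 without WT DMSO replicate 3 (0.90) and Serpinh1 without PERK -/- DMSO replicate 1, or PERK -/- thapsigargin replicate 2, or WT DMSO replicate 2 (0.37 to 0.39).

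Serpinh1 was 1207, 1339 and 1147 CPM in WT DMSO and 1842, 1700 and 1658 with thapsigargin, a log2 fold change of 0.49 ± 0.10 (adjusted p = 0.000191). In PERK -/- cells it was 713, 832 and 815 and 1384, 1583 and 1526 CPM, 0.93 ± 0.10 (adjusted p = 2.68e-08). All treated libraries lay above all controls in both genotypes, and the interaction was 0.44 ± 0.15 (adjusted p = 0.0171). The general chaperones of the ER responded more. All 14 of the list were called higher in both genotypes, from Canx at 0.86 to Sdf2l1 at 4.15 in WT and from Dnajb11 at 0.68 to Sdf2l1 at 2.53 in PERK -/- cells, with medians of 2.42 and 1.47. In WT cells all 14 had a larger fold change than Serpinh1, and in PERK -/- cells 11 of 14 did. Of the 14 interactions 11 were called lower and 0 higher, so the response of those chaperones was smaller in PERK -/- cells and that of Serpinh1 larger. All 14 interaction values were negative.

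**Figure D2:**
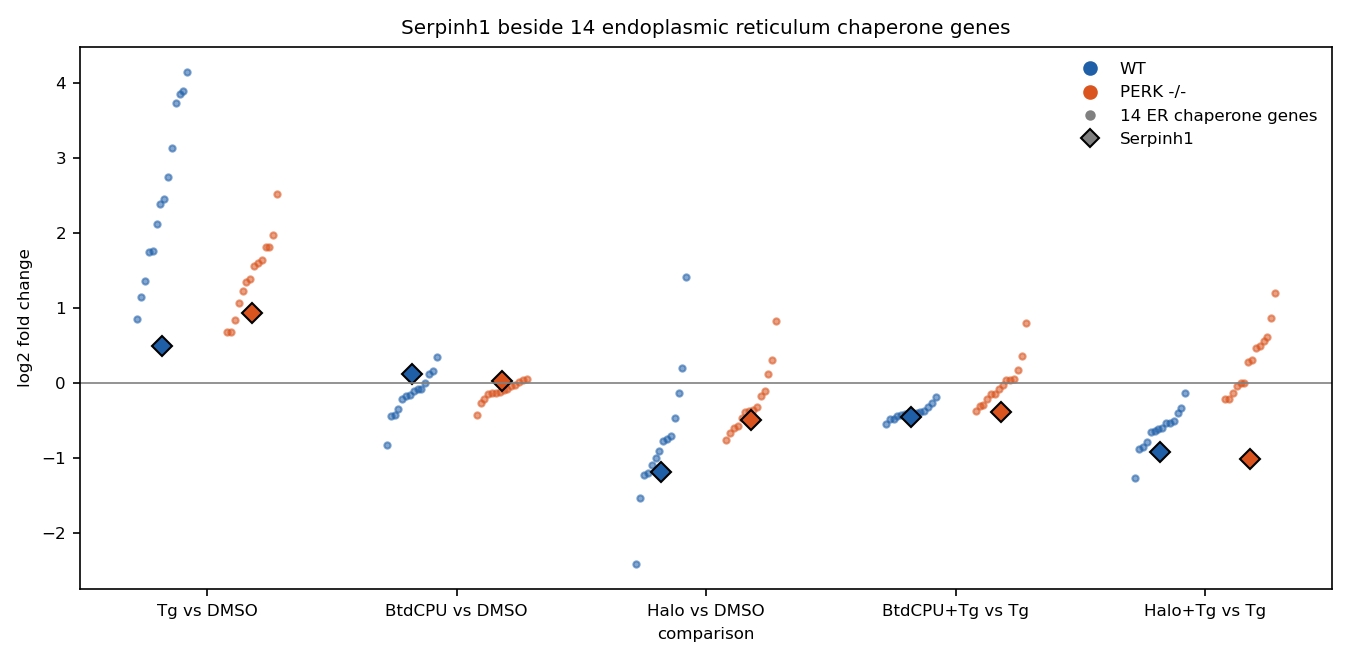
Log2 fold change (vertical axis) of Serpinh1 (diamonds) and of 14 ER chaperone genes (dots, sorted by value) in 5 comparisons (horizontal axis), in WT (blue) and PERK -/- (orange) cells; Tg is thapsigargin and Halo is halofuginone. With thapsigargin the chaperone medians are 2.42 in WT and 1.47 in PERK -/- cells, and the Serpinh1 values are 0.49 and 0.93.

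The type I and type III collagen chains fell in WT cells and rose in PERK -/- cells. Of 10 tested fibrillar chains, 2 were called higher and 4 lower in WT cells with thapsigargin (median -0.15 beside 0.02 over all tested genes), and 6 higher and 0 lower in PERK -/- cells (median 0.60 beside 0.05). Col3a1, a chain of type III collagen, gave -0.94 ± 0.18 in WT (adjusted p = 6.43e-05) and 0.79 ± 0.18 in PERK -/- cells (adjusted p = 0.00103). The type I chains, chosen after their values were seen, gave -0.70 ± 0.17 and 0.60 ± 0.17 for Col1a1 and -0.78 ± 0.12 and 0.63 ± 0.12 for Col1a2, in the same order, all called. Col5a3 rose by 1.47 ± 0.19 in WT cells, and Col11a1 by 1.59 ± 0.18 in PERK -/- cells. Of 29 collagen maturation genes, 11 were called higher and 12 lower in WT, with Sec24d, a coat protein of collagen export, at 0.99 ± 0.10 and the lysyl oxidase Loxl3 at -1.90 ± 0.15. Without PERK 13 were called higher and 3 lower, from the collagen isomerase Fkbp14 at 2.04 ± 0.28 to P3h4 at -1.22 ± 0.11. P4hb, the beta subunit that the 3 alpha subunits share, likewise chosen after its values were seen, rose in both genotypes, by 0.59 ± 0.09 in WT (adjusted p = 1.03e-06) and 0.91 ± 0.09 in PERK -/- cells (adjusted p = 9.92e-10).

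Genes of other programmes were mixed with thapsigargin. Hypoxia-inducible genes had 4 of 16 called higher and 3 lower in WT, with Ndrg1 at 2.74 ± 0.16 and Ldha at -0.60 ± 0.15, and 6 higher and 2 lower in PERK -/- cells, with Bnip3 at 1.90 ± 0.17 and Hk2 at -1.35 ± 0.23. HSF1 targets had 1 of 12 higher and 3 lower in WT, Hspa4l at 0.40 ± 0.12 and Hsph1 at -1.05 ± 0.11, and 3 higher and 2 lower in PERK -/- cells, Hspa1a at 1.11 ± 0.25 and Hspd1 at -0.58 ± 0.12. Hspa1a has a near-identical copy, so its counts are uncertain. Of the 10 other 2-oxoglutarate oxygenases, 4 were higher and 2 lower in WT, with the histone demethylase Kdm4a at 1.11 ± 0.11 and Egln1 at -0.60 ± 0.12, and 4 higher and 2 lower in PERK -/- cells, with Ogfod2 at 0.78 ± 0.13 and Ogfod1 at -0.67 ± 0.11.

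**Figure D3:**
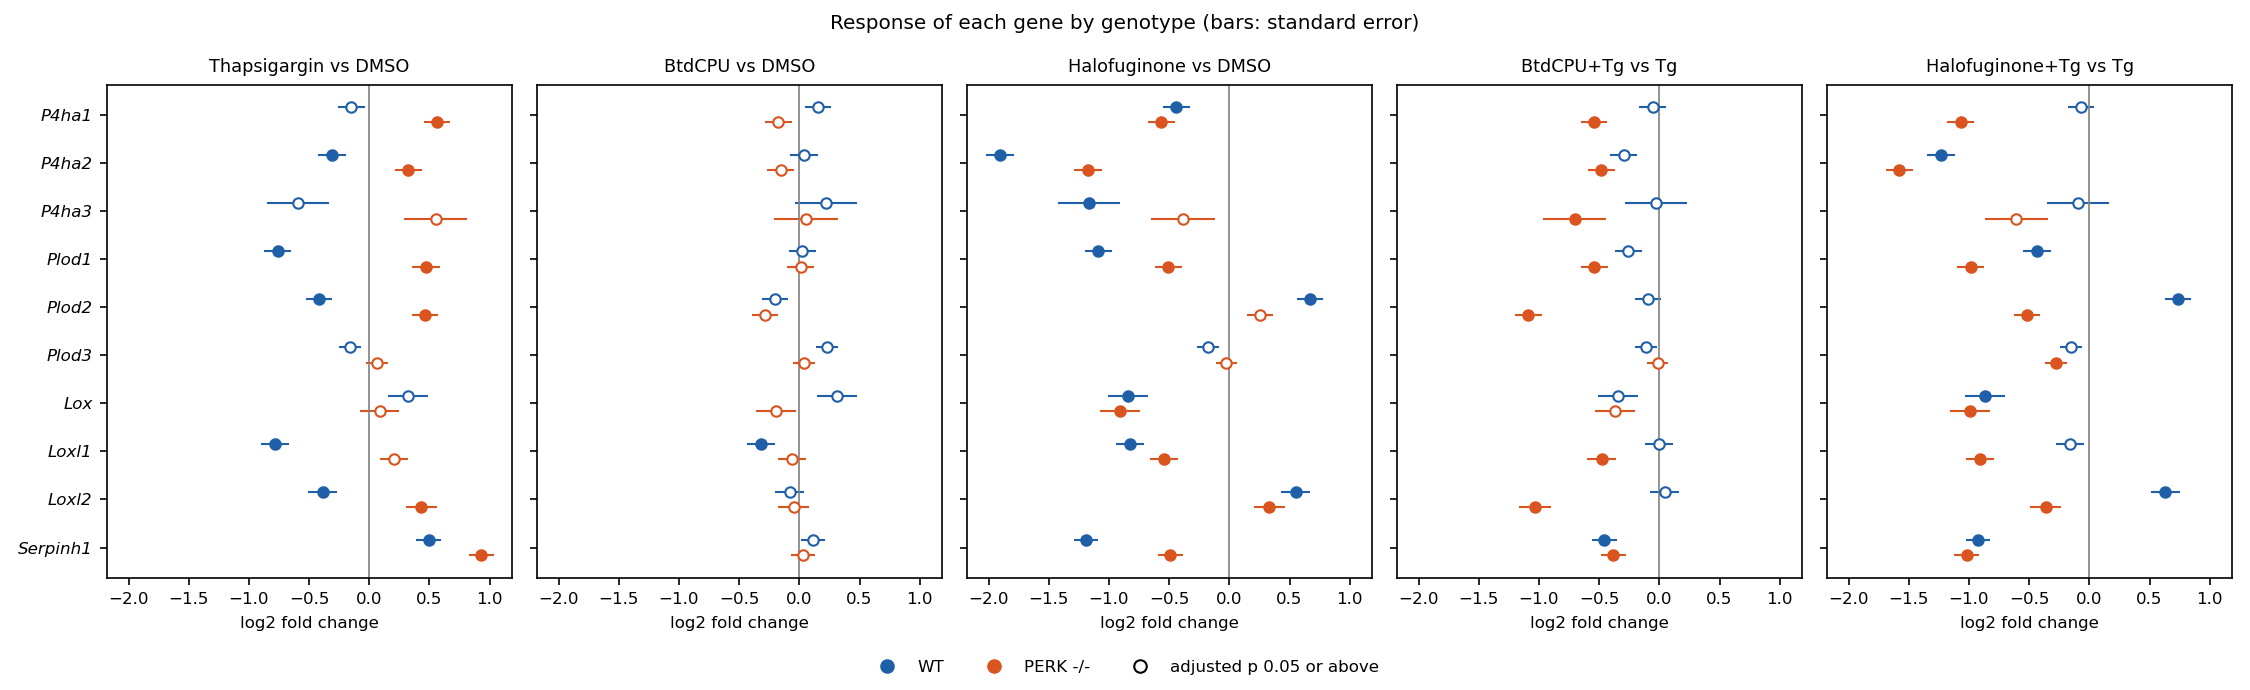
Log2 fold change with its standard error (horizontal axis) of each gene (vertical axis) in 5 comparisons, in WT (blue) and PERK -/- (orange) cells; filled points have an adjusted p below 0.05 and open points do not. With thapsigargin 8 of the 10 genes, all but Lox and Serpinh1, have WT values below 0 and PERK -/- values above 0. With halofuginone the points of the 2 genotypes lie on the same side of 0 for all 10 genes. These signs are read at any adjusted p, and the share of all tested genes with the same signs was not counted.

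Halofuginone lowered most of the genes in both genotypes, but raised Loxl2 in both and Plod2 in WT cells. In WT cells 2 of the 10 were called higher and 7 lower, beside 34.7% and 33.4% of all tested genes, so most genes changed in this comparison. Among PERK -/- libraries 1 was called higher and 6 lower, beside 21.2% and 21.0%. The interaction was called higher for 3, P4ha2, Serpinh1 and Plod1, and lower for 1, Plod2, beside 17.5% and 17.5% of all genes. In WT halofuginone libraries the 5 epithelial markers summed to 20.01 to 29.0 CPM beside 0.836 to 1.09 in WT DMSO, with Krt8, Krt18 and Krt19 but neither Epcam nor Cdh1 at a mean of 1 CPM or more, and the 4 endothelial markers to 3.22 to 5.33 beside 0.248 to 0.899; in PERK -/- halofuginone libraries the epithelial sum was 3.13 to 4.88. Their part in the result was not tested. Scaled by library size alone, WT halofuginone values moved down as a whole, the median over all genes from 0.00 to -0.11, and called members were then 2 higher and 8 lower in WT, 0 and 6 in PERK -/- cells and 4 and 0 in the interaction, where Plod2 was no longer called.

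P4ha2 fell furthest. It was 57.5, 60.4 and 65.2 CPM in WT DMSO and 18.5, 14.98 and 15.3 with halofuginone, a log2 fold change of -1.91 ± 0.12 (adjusted p = 9.01e-15), leaving 26.7% of the mean control level. In cells lacking PERK it went from 73.2, 74.0 and 80.3 to 37.5, 36.1 and 27.4 CPM, -1.17 ± 0.11 (adjusted p = 1.23e-09). No treated library overlapped a control in either genotype, and the interaction was 0.74 ± 0.16 (adjusted p = 0.000745). P4ha1 was 153, 128 and 160.5 CPM with halofuginone in WT, -0.44 ± 0.11 (adjusted p = 0.000896), and 111, 109 and 97.0 in PERK -/- cells, -0.56 ± 0.11 (adjusted p = 0.000122). The 2 genotypes did not differ detectably for P4ha1, with an interaction of -0.12 ± 0.16 (adjusted p = 0.576). P4ha3 was 22.6, 21.0 and 44.1 CPM in WT, -1.16 ± 0.26 (adjusted p = 0.000244), and 17.8, 16.1 and 14.2 in PERK -/- cells, -0.39 ± 0.27 (adjusted p = 0.253). All P4ha3 treated libraries lay below the controls of their genotype.

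Plod1 and Plod2 moved apart. Plod1 was 41.9, 42.2 and 57.5 CPM with halofuginone in WT, -1.09 ± 0.11 (adjusted p = 8.86e-10), and 53.9, 62.4 and 56.3 in PERK -/- cells, -0.51 ± 0.11 (adjusted p = 0.000547), with an interaction of 0.58 ± 0.16 (adjusted p = 0.00546). Plod2 was 104, 87.4 and 82.7 CPM in WT, above all WT controls, 0.67 ± 0.11 (adjusted p = 2.51e-06). For PERK -/- cells Plod2 was 41.4, 37.2 and 42.9 CPM, 0.25 ± 0.11 (adjusted p = 0.0609), and the interaction was -0.41 ± 0.15 (adjusted p = 0.0348). Plod3 gave -0.18 ± 0.09 (adjusted p = 0.0784) in WT and -0.02 ± 0.09 (adjusted p = 0.87) in PERK -/- cells; with the replicate block its WT value passed (-0.17, adjusted p = 0.018). Lox fell in both genotypes, to 134, 113 and 197 CPM in WT, -0.84 ± 0.17 (adjusted p = 4.83e-05), and to 124, 143 and 128 in PERK -/- cells, -0.91 ± 0.17 (adjusted p = 4.54e-05). Loxl1 fell to 183, 208 and 187 CPM, -0.83 ± 0.12 (adjusted p = 2.5e-07), and to 85.0, 89.9 and 70.0, -0.54 ± 0.12 (adjusted p = 0.000341). Loxl2 was 179, 177 and 234 CPM in WT, 0.55 ± 0.12 (adjusted p = 0.000171), and 14.1, 13.9 and 13.8 in PERK -/- cells, 0.33 ± 0.13 (adjusted p = 0.039). The WT value of Loxl2 was 0.36 without halofuginone replicate 3, still called. Calls were lost for Loxl2 without PERK -/- DMSO replicate 2 or 3, or PERK -/- halofuginone replicate 1, 2 or 3 (0.26 to 0.34) in PERK -/- cells and, in the interaction, for Plod2 without PERK -/- DMSO replicate 1, 2 or 3, or PERK -/- halofuginone replicate 1, 2 or 3, or WT DMSO replicate 3, or WT halofuginone replicate 1 (-0.40 to -0.25).

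Serpinh1 fell to 543, 598 and 477 CPM in WT cells, -1.19 ± 0.10 (adjusted p = 1.45e-11), and to 520.0, 635 and 526 in PERK -/- cells, -0.49 ± 0.10 (adjusted p = 0.000249). Its levels with halofuginone overlapped between the genotypes, although in DMSO every WT library was higher, and the interaction was 0.70 ± 0.15 (adjusted p = 0.000368). Of the 14 ER chaperones 11 were called lower and 1 higher in WT, Hspa5, the main Hsp70 of the ER, at 1.41 ± 0.14, and the lowest was Sdf2l1 at -2.42 ± 0.31. Within PERK -/- cells 7 were called lower and 1 higher, with Hspa5 at 0.83 ± 0.14 and Calr at -0.77 ± 0.12. P4hb gave -1.06 ± 0.09 in WT and -0.41 ± 0.09 in PERK -/- cells, both called.

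Of the 29 collagen maturation genes 7 were called higher and 19 lower in WT cells with halofuginone (median -0.67, all tested genes 0.00), from the procollagen proteinase Tll1 at 1.72 ± 0.39 to Fkbp14 at -4.03 ± 0.33. In PERK -/- cells 4 were called higher and 15 lower (median -0.32), from the prolyl 3-hydroxylase P3h2 at 1.03 ± 0.22 to Fkbp14 at -2.26 ± 0.34. Of 10 fibrillar chains 3 were higher and 5 lower in WT, Col5a3 at 2.59 ± 0.19 and Col3a1 at -2.12 ± 0.18, and 3 higher and 4 lower in PERK -/- cells, Col5a3 at 1.29 ± 0.20 and Col11a1 at -0.70 ± 0.19. Hypoxia-inducible genes had 6 of 16 higher and 8 lower in WT, with Ndrg1 at 4.69 ± 0.16 and Pdk1 at -1.39 ± 0.19, and 3 and 8 in PERK -/- cells, with Ndrg1 at 3.42 ± 0.16 and Bnip3 at -1.02 ± 0.18. HSF1 targets had 3 of 12 higher and 9 lower in WT, with Hspb1 at 2.56 ± 0.21 and Hspa1a at -2.84 ± 0.27, and 0 and 8 in PERK -/- cells, with Hspa1a at -3.31 ± 0.31. Of the other 2-oxoglutarate oxygenases 5 were higher and 4 lower in WT, Kdm5a at 1.57 ± 0.09 and Egln2 at -1.20 ± 0.12, and 3 and 3 in PERK -/- cells, Kdm4a at 0.82 ± 0.11 and Egln2 at -1.06 ± 0.12.

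By the test used throughout, at most 1 of the 10 genes was called in a comparison of BtdCPU alone with DMSO. Such counts over 10 genes do not set them apart from all tested genes. In WT cells 1 was called lower, Loxl1, and 0 higher, beside 12.9% higher and 9.31% lower over all tested genes. Loxl1 was 224, 309 and 287 CPM with BtdCPU and 324, 311 and 388 in DMSO, -0.32 ± 0.12 (adjusted p = 0.0443), and every treated library lay below every control. The call was lost for Loxl1 without WT BtdCPU replicate 1 or 3, or WT DMSO replicate 1 or 3 (-0.36 to -0.20). Without PERK none of the 10 was called, beside 2.55% higher and 1.04% lower over all genes; edgeR gave 1 of the 10 an unadjusted p under 0.05, Plod2 at -0.29 ± 0.11, and DESeq2 called none. No interaction was called either, beside 0.0373% and 0.162%; 2 genes, P4ha1 and Lox, had an unadjusted p under 0.05 in edgeR, and DESeq2 called none. The largest values in PERK -/- cells were -0.29 ± 0.11 for Plod2 and -0.19 ± 0.17 for Lox. With the replicate block 3 genes were called in WT cells, Lox (0.30, adjusted p = 0.025) and Plod3 (0.23, adjusted p = 0.0058) beside Loxl1, and 1 in the interaction, P4ha1 (-0.33, adjusted p = 0.039). Serpinh1 gave 0.11 ± 0.10 in WT and 0.03 ± 0.10 in PERK -/- cells.

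In the same comparison 1 collagen maturation gene was called higher in WT cells, P3h2 at 0.88 ± 0.21, and 1 lower, Fkbp14 at -0.86 ± 0.28. Of the 14 ER chaperones 3 were called lower, the lowest Sdf2l1 at -0.83 ± 0.28. Of the 16 hypoxia-inducible genes 4 were called higher and 1 lower in WT cells (median -0.05), and 3 higher and 2 lower in PERK -/- cells (median -0.11). Ndrg1 of this list rose in WT (2.35 ± 0.16) and in PERK -/- cells (1.48 ± 0.16). Higd1a of the same list fell in WT (-0.60 ± 0.19) and Bnip3 in PERK -/- cells (-0.80 ± 0.18). Kdm4a rose in both, by 1.04 ± 0.11 and 0.62 ± 0.11. Of the HSF1 targets 5 were lower in WT, with Hspa1b at -1.26 ± 0.25, and 4 in PERK -/- cells, with Hspa1a at -0.97 ± 0.26.

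Added to thapsigargin, both compounds lowered most of the genes in PERK -/- cells. With BtdCPU added, 8 of the 10 were called lower and 0 higher in PERK -/- cells, beside 17.3% of all tested genes called higher and 18.3% lower. In WT cells 1, Serpinh1, was called lower, beside 1.29% and 1.02%. The interaction was called lower for 4 genes, Loxl2, Plod2, P4ha1 and Loxl1, beside 10.7% and 10.1%. With halofuginone added, 9 were called lower in PERK -/- cells, beside 25.2% and 27.5%. In WT cells 2 were called higher, Plod2 and Loxl2, and 4 lower, P4ha2, Serpinh1, Lox and Plod1, beside 22.8% and 22.5%. The interaction was called lower for 5, Plod2, P4ha1, Loxl2, Loxl1 and Plod1, beside 15.9% and 16.9%. The comparisons of a genotype share its thapsigargin libraries, which also enter the comparison of thapsigargin with DMSO, where 6 of these genes were higher in PERK -/- cells. Leukocyte markers summed to 14.3 to 22.9 CPM in PERK -/- BtdCPU with thapsigargin and to 4.69 to 5.80 in PERK -/- halofuginone with thapsigargin libraries, and epithelial markers to 10.3 to 12.9 CPM in WT halofuginone with thapsigargin libraries. The part of either in the result was not tested.

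Plod2 showed the largest change with BtdCPU. Among PERK -/- libraries it was 47.7, 44.5 and 48.5 CPM with thapsigargin and 23.5, 21.6 and 21.1 with BtdCPU added, -1.09 ± 0.11 (adjusted p = 4.37e-09), below every DMSO library of that genotype too. In WT cells it was 44.1, 42.4 and 42.8 and 41.5, 43.1 and 36.5 CPM, -0.10 ± 0.11 (adjusted p = 0.704), and the interaction was -0.99 ± 0.15 (adjusted p = 1.78e-05). With halofuginone added, Plod2 was 72.4, 64.3 and 79.2 CPM in WT, 0.74 ± 0.11 (adjusted p = 1.7e-06), but 32.8, 29.6 and 35.9 in PERK -/- cells, -0.52 ± 0.11 (adjusted p = 0.00017). The direction thus differed between the genotypes, with an interaction of -1.26 ± 0.15 (adjusted p = 1.85e-07). Loxl2 had the same pattern: 0.63 ± 0.12 (adjusted p = 7.61e-05) in WT and -0.36 ± 0.13 (adjusted p = 0.0181) in PERK -/- cells with halofuginone added, interaction -0.99 ± 0.18 (adjusted p = 4.76e-05). With BtdCPU added Loxl2 was 7.57, 8.63 and 5.73 CPM in PERK -/- cells, -1.03 ± 0.13 (adjusted p = 2.84e-07), beside 0.05 ± 0.12 (adjusted p = 0.893) in WT, and the interaction was -1.08 ± 0.18 (adjusted p = 4.52e-05). Gm21451 gave interactions of -1.18 ± 0.16 with BtdCPU and -1.04 ± 0.15 with halofuginone.

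P4ha1 was 225, 223 and 243 CPM in PERK -/- cells with thapsigargin, 164, 164 and 147 with BtdCPU added, -0.54 ± 0.11 (adjusted p = 0.000263), and 109.6, 109.6 and 110.1 with halofuginone added, -1.07 ± 0.11 (adjusted p = 1.71e-09). Its WT values were -0.05 ± 0.11 and -0.07 ± 0.11, and the interactions -0.49 ± 0.16 (adjusted p = 0.0249) and -0.9996 ± 0.16 (adjusted p = 9.06e-06). P4ha2 was lowered by halofuginone in both genotypes, to 19.7, 23.7 and 19.5 CPM in WT, -1.24 ± 0.12 (adjusted p = 6.63e-10), and 29.9, 36.6 and 28.8 in PERK -/- cells, -1.58 ± 0.11 (adjusted p = 1.11e-12). With BtdCPU added P4ha2 gave -0.30 ± 0.11 in WT (adjusted p = 0.166) and -0.48 ± 0.11 (adjusted p = 0.00115) in PERK -/- cells. P4ha3 in PERK -/- cells gave -0.70 ± 0.26 (adjusted p = 0.0358) with BtdCPU and -0.61 ± 0.26 (adjusted p = 0.0516) with halofuginone. With the replicate block the P4ha3 interaction with BtdCPU passed (-0.67, adjusted p = 0.00045).

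Plod1 gave -0.54 ± 0.11 (adjusted p = 0.000345) with BtdCPU and -0.99 ± 0.11 (adjusted p = 1.26e-08) with halofuginone in PERK -/- cells. In WT cells Plod1 gave -0.26 ± 0.11 (adjusted p = 0.235) and -0.44 ± 0.11 (adjusted p = 0.00233). Its interaction was -0.28 ± 0.16 (adjusted p = 0.234) with BtdCPU and -0.55 ± 0.16 (adjusted p = 0.00834) with halofuginone. Plod3 was called once, -0.28 ± 0.09 (adjusted p = 0.0107) with halofuginone in PERK -/- cells. Loxl1 gave -0.48 ± 0.12 (adjusted p = 0.00159) and -0.91 ± 0.12 (adjusted p = 9.32e-08) in PERK -/- cells beside -0.01 ± 0.12 and -0.16 ± 0.12 in WT, with interactions of -0.48 ± 0.16 (adjusted p = 0.0373) and -0.75 ± 0.16 (adjusted p = 0.000649). Lox was lowered by halofuginone in both genotypes, -0.87 ± 0.17 (adjusted p = 7.93e-05) in WT and -0.99 ± 0.17 (adjusted p = 7.89e-06) in PERK -/- cells, interaction -0.13 ± 0.23 (adjusted p = 0.728). With BtdCPU added Lox gave -0.34 ± 0.17 (adjusted p = 0.283) in WT and -0.37 ± 0.17 (adjusted p = 0.0849) in PERK -/- cells; both passed with the replicate block (-0.34, adjusted p = 0.028 and -0.37, adjusted p = 0.004), as did Plod1 in WT (-0.25, adjusted p = 0.048).

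Serpinh1 fell with both compounds in both genotypes. In WT cells it was 1842, 1700 and 1658 CPM with thapsigargin, 1369, 1264 and 1153 with BtdCPU added, -0.46 ± 0.10 (adjusted p = 0.0157), and 917, 1010 and 812 with halofuginone added, -0.92 ± 0.10 (adjusted p = 1.54e-08). In cells lacking PERK it was 1384, 1583 and 1526 CPM with thapsigargin, 1046, 1141 and 1257 with BtdCPU added, -0.38 ± 0.10 (adjusted p = 0.00374), and 776, 748 and 692 with halofuginone added, -1.02 ± 0.10 (adjusted p = 8.83e-10). Neither interaction was called, at 0.07 ± 0.15 (adjusted p = 0.784) and -0.10 ± 0.15 (adjusted p = 0.665). For PERK -/- cells all 14 ER chaperones had a higher log2 fold change than Serpinh1 in both of these comparisons. In WT cells 11 of the 14 did with BtdCPU added and 13 with halofuginone added. The chaperone medians in PERK -/- cells were -0.05 with BtdCPU (1 called higher, 2 lower) and 0.29 with halofuginone (7 called higher, 0 lower). The highest chaperone there was Hspa5, at 0.80 ± 0.14 with BtdCPU and 1.20 ± 0.14 with halofuginone. Calls were lost, with BtdCPU added, for Serpinh1 without WT BtdCPU with thapsigargin replicate 3, or WT thapsigargin replicate 1 (-0.41 to -0.40) in WT cells, for Serpinh1 without PERK -/- BtdCPU with thapsigargin replicate 1 (-0.28) and P4ha3 without PERK -/- BtdCPU with thapsigargin replicate 1, 2 or 3, or PERK -/- thapsigargin replicate 1, 2 or 3 (-0.75 to -0.62) in PERK -/- cells, and in the interaction for P4ha1 without PERK -/- BtdCPU with thapsigargin replicate 1, 2 or 3, or PERK -/- thapsigargin replicate 2 or 3, or WT BtdCPU with thapsigargin replicate 1 or 3, or WT thapsigargin replicate 1 or 2 (-0.47 to -0.37) and Loxl1 without PERK -/- BtdCPU with thapsigargin replicate 1, 2 or 3, or PERK -/- thapsigargin replicate 1, 2 or 3, or WT BtdCPU with thapsigargin replicate 1 or 3, or WT thapsigargin replicate 2 or 3 (-0.48 to -0.36). With halofuginone added they were lost for Loxl2 without PERK -/- halofuginone with thapsigargin replicate 1 or 2, or PERK -/- thapsigargin replicate 2 or 3 (-0.33 to -0.22) and Plod3 without PERK -/- halofuginone with thapsigargin replicate 1 or 3, or PERK -/- thapsigargin replicate 3 (-0.25 to -0.22) in PERK -/- cells and in the interaction for Plod1 without PERK -/- thapsigargin replicate 3, or WT thapsigargin replicate 2 (-0.42 to -0.41).

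Read the other way, thapsigargin added to halofuginone raised Serpinh1 in both genotypes. Of the 10 genes 3 were called in WT cells, beside 14% of all tested genes, and 1 in PERK -/- cells, beside 6.43%. Added to halofuginone in WT cells thapsigargin gave 0.76 ± 0.10 (adjusted p = 2.17e-06) for Serpinh1, 0.36 ± 0.12 (adjusted p = 0.0354) for P4ha2 and -0.34 ± 0.11 (adjusted p = 0.0281) for Plod2. That is 2 called higher and 1 lower beside 8.13% and 5.83% of all genes, a split that was 3 and 0 with library size alone and 1 and 1 with size factors of relative log expression. Within PERK -/- cells only Serpinh1 of the 10 was called, 0.40 ± 0.10 (adjusted p = 0.0125), beside 3.27% higher and 3.16% lower. Added to BtdCPU in WT cells it lowered 7 genes and raised 0, beside 19.5% lower and 20.9% higher over all genes, from -1.04 ± 0.11 (adjusted p = 1.38e-08) for Plod1 to -0.31 ± 0.11 (adjusted p = 0.0236) for Plod2; Serpinh1 gave -0.08 ± 0.10 (adjusted p = 0.57). In PERK -/- cells it gave 0.51 ± 0.10 (adjusted p = 0.000461) for Serpinh1, -0.55 ± 0.13 (adjusted p = 0.00313) for Loxl2 and -0.34 ± 0.11 (adjusted p = 0.032) for Plod2, 1 called higher and 2 lower beside 9.34% and 7.48%. With the replicate block 7 genes were called when thapsigargin was added to halofuginone in WT, adding P4ha3 (0.48, adjusted p = 0.00049), P4ha1 (0.22, adjusted p = 0.012), Lox (0.30, adjusted p = 0.031) and Loxl2 (-0.31, adjusted p = 0.026), and 4 in PERK -/- cells, adding P4ha3 (0.32, adjusted p = 0.037), Plod2 (-0.30, adjusted p = 0.042) and Plod3 (-0.19, adjusted p = 0.049). When it was added to BtdCPU the block added Lox (-0.31, adjusted p = 0.012) and Loxl2 (-0.26, adjusted p = 0.034) in WT and P4ha1 (0.19, adjusted p = 0.027) in PERK -/- cells. Calls were lost for P4ha1 without WT BtdCPU replicate 3 (-0.27), P4ha3 without WT BtdCPU replicate 3, or WT BtdCPU with thapsigargin replicate 2 (-0.71 to -0.58), Plod2 without WT BtdCPU replicate 2, or WT BtdCPU with thapsigargin replicate 3 (-0.28 to -0.19), P4ha2 without WT halofuginone replicate 2 or 3, or WT halofuginone with thapsigargin replicate 2 (0.27 to 0.33), Plod2 without WT halofuginone replicate 1, or WT halofuginone with thapsigargin replicate 1 or 2 (-0.35 to -0.25), Loxl2 without PERK -/- BtdCPU with thapsigargin replicate 3 (-0.40), Plod2 without PERK -/- BtdCPU replicate 1 or 2, or PERK -/- BtdCPU with thapsigargin replicate 2 or 3 (-0.33 to -0.26), and Serpinh1 without PERK -/- halofuginone replicate 1 or 3, or PERK -/- halofuginone with thapsigargin replicate 1 or 2 (0.34 to 0.37).

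Against DMSO, the combination of BtdCPU and thapsigargin left 7 of the 10 genes lower and 0 higher in WT cells, beside 24.5% lower and 28.0% higher over all genes, with Plod1 at -1.02 ± 0.11 and Serpinh1 at 0.04 ± 0.10. Without PERK 1 was higher, Serpinh1 at 0.55 ± 0.10 (adjusted p = 0.000101), and 2 were lower, Plod2 at -0.62 ± 0.11 (adjusted p = 4.52e-05) and Loxl2 at -0.60 ± 0.13 (adjusted p = 0.00069), beside 16.8% and 14.6%. Halofuginone with thapsigargin left 1 higher, Plod2 at 0.32 ± 0.11 (adjusted p = 0.00955), and 7 lower in WT cells, beside 34.3% and 31.4%, with P4ha2 at -1.54 ± 0.12 and Serpinh1 at -0.43 ± 0.10. Among PERK -/- libraries 5 were lower and 0 higher, beside 22.2% and 22.9%, with P4ha2 at -1.26 ± 0.11 and Lox at -0.91 ± 0.17. With the replicate block 5 genes were called for BtdCPU and thapsigargin in PERK -/- cells, adding Lox (-0.29, adjusted p = 0.026) and Loxl1 (-0.27, adjusted p = 0.043), and for halofuginone and thapsigargin in WT it added P4ha1 (-0.21, adjusted p = 0.0044) and Loxl2 (0.24, adjusted p = 0.034). Calls were lost for Loxl2 without WT DMSO replicate 3 (-0.27), P4ha3 without WT BtdCPU with thapsigargin replicate 1 or 2, or WT DMSO replicate 3 (-0.61 to -0.38), Plod3 without WT DMSO replicate 3 (-0.23), Lox without WT halofuginone with thapsigargin replicate 2 (-0.37), P4ha3 without WT DMSO replicate 3, or WT halofuginone with thapsigargin replicate 1 or 2 (-0.56 to -0.45), and Plod2 without WT DMSO replicate 3, or WT halofuginone with thapsigargin replicate 3 (0.23 to 0.25). P4ha3 moved to -0.95 and -1.08 from -0.62 and -0.69 in WT when replicate 3 of the 2 combinations was left out, and the WT count with BtdCPU was 4 without WT DMSO replicate 3.

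The make-up of each enzyme family, as shares of the summed CPM per kilobase of its members among the 10 genes, shifted with genotype and with halofuginone. The lysyl oxidase shares thus cover Lox, Loxl1 and Loxl2 only, and leave out Loxl3 and Loxl4. P4ha1 was the largest share of the prolyl 4-hydroxylase alpha subunits in every group. P4ha2 made up 12.5% ± 1.61 (SD, n = 3) in WT DMSO and 5.56% ± 0.999 with halofuginone, and 21.5% ± 1.30 and 14.9% ± 1.17 in PERK -/- cells. P4ha3 made up 26.1% ± 2.38 in WT DMSO and 11.8% ± 0.599 in PERK -/- DMSO libraries. Of the lysyl hydroxylases Plod3 was the largest in every group, and Plod2 went from 11.7% ± 2.04 to 20.4% ± 1.72 with halofuginone in WT cells beside 8.54% ± 0.769 and 10.6% ± 1.07 in PERK -/- cells. Among these lysyl oxidases Loxl1 led in WT DMSO at 56.3% ± 1.06 and Lox at 57.6% ± 1.23 in PERK -/- DMSO libraries. Thapsigargin took the Lox share in WT cells from 30.2% ± 1.58 to 46.7% ± 3.13. These shares are descriptions and depend on the exon lengths used. A share also moves when another member changes, and those of Plod2 and Loxl2 carry the shared reads described above.

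**Figure D4:**
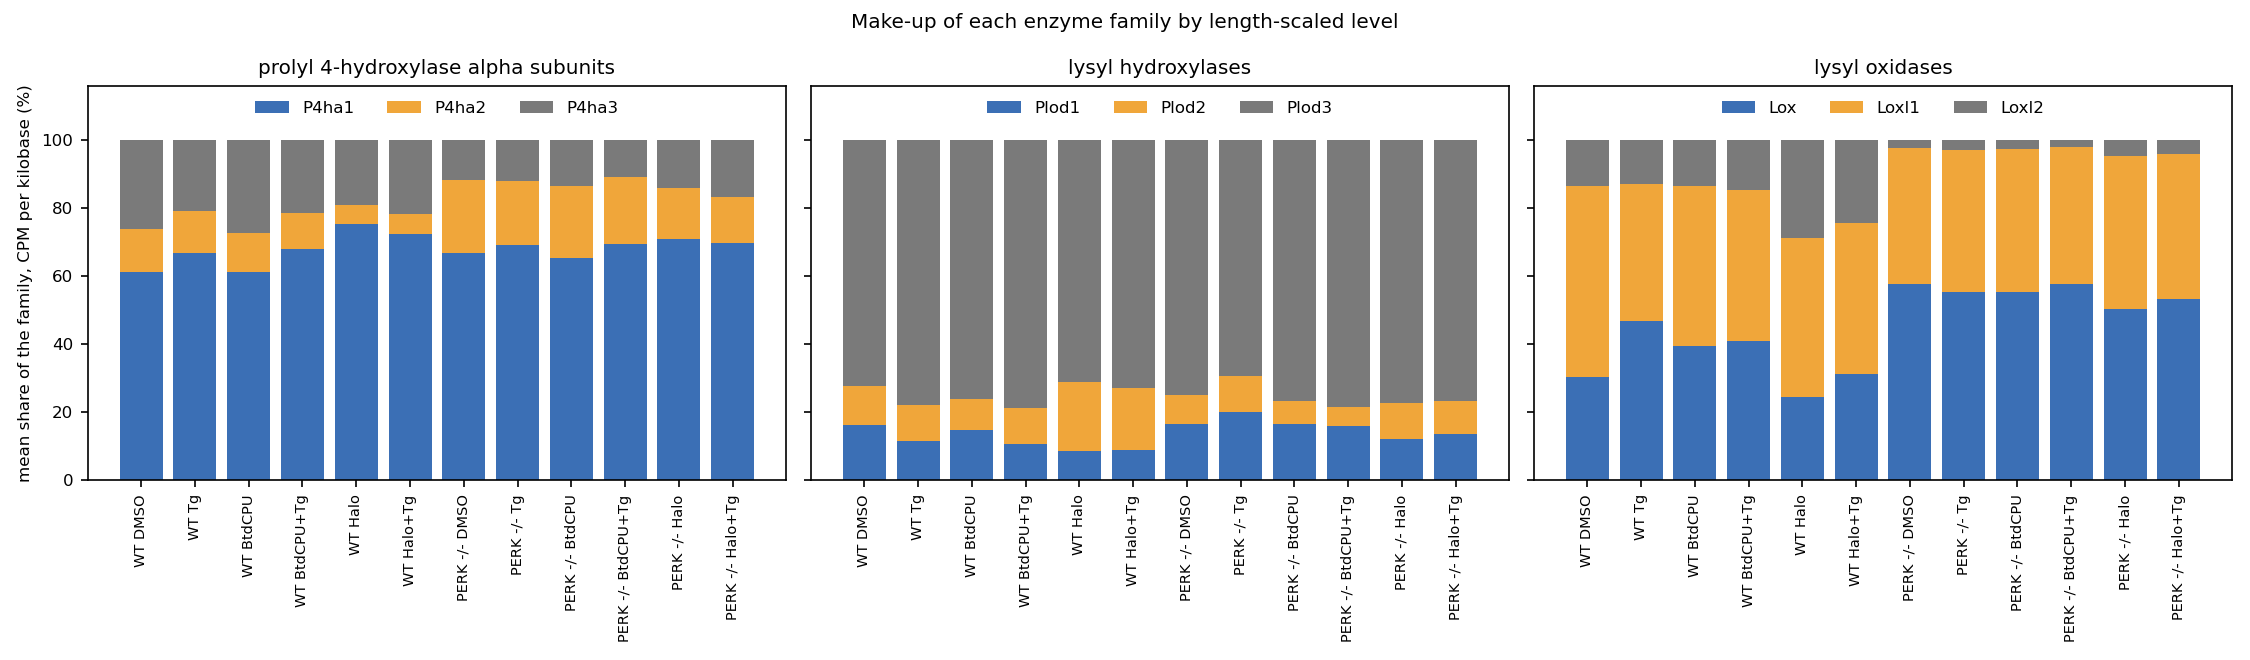
Mean share of each gene (percent, vertical axis) in the summed CPM per kilobase of the genes shown of its enzyme family in the 12 groups (horizontal axis), for prolyl 4-hydroxylase alpha subunits, lysyl hydroxylases and lysyl oxidases; Tg is thapsigargin and Halo is halofuginone. Loxl3 and Loxl4 are not part of the lysyl oxidase sum. The P4ha2 share is smallest in the WT groups with halofuginone, and the Loxl2 share is small in all PERK -/- groups.

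Across the 12 group means of log2 CPM, which share the same libraries for every gene, some of the 10 followed one another. Pearson's r was 0.93 for P4ha3 and Loxl1, 0.88 for P4ha2 and Plod1, 0.86 for Lox and Serpinh1, 0.85 for Loxl1 and Loxl2, 0.83 for P4ha1 and Lox, and 0.82 for Plod2 and Loxl2, whereas P4ha2 and Plod2 gave -0.60. Of all tested genes of sufficient level, the one most like Serpinh1 was P3h1, the prolyl 3-hydroxylase of the collagen helix, with r = 0.99, followed by Dhx57 and Cope at 0.98 and 0.97. P3h1 gave 0.65 ± 0.12 in WT and 1.38 ± 0.13 in PERK -/- cells with thapsigargin, and -1.83 ± 0.13 and -0.71 ± 0.13 with halofuginone. Near to P4ha2 were 1110038F14Rik and Dpp3 (0.99 each), to P4ha1 Hspa2, Nid2 and Atf7ip (0.96, 0.96 and 0.95), and to P4ha3 Irak4 and Pccb (0.97 each). Nearest to Plod1 were Ctps2, Ctxn1 and Npc2 (0.98 each), to Plod2 B430319G15Rik, Klhl18 and Tlr4 (0.96, 0.95 and 0.95), and to Plod3 Cpe, Aldh7a1 and Lama4 (0.98, 0.95 and 0.94). Nearest to Lox were Qars, Ubl7 and Gprasp1 (0.97, 0.95 and 0.95), to Loxl1 Bicc1, 2310009B15Rik and Mdga1 (0.98 each), and to Loxl2 Gm21451 and Gm3579 (1.00 each) and Scamp5 (0.99). These are among the highest of many correlations and are given as descriptions over 12 means.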

How the data were processed

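RNA of 36 mouse fibroblast libraries was sequenced after strand-specific preparation on a DNBSEQ instrument, per the labels' protocols. The table deposited by the authors gives unscaled estimated counts for each gene in each library, and the submitters' processing notes name GRCm39 and DESeq. The aligner, the counting tool and the annotation are not given in the sources used here. A value of 0.025, found in 50.6% of the cells of the deposited file, was set to 0, 2.69% of the others were not whole and were rounded, and 39 duplicated symbols (86 entries) were summed. Another 27 entries bear dates as names and hold 0.206% to 0.278% of a library. They name no gene and were left out.

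Of 28037 symbols with a count, 16065 passed edgeR's filter by group. edgeR 4.0.16 in R 4.3.3 was fitted on 12 group means with TMM scaling and the robust quasi-likelihood test (24 residual degrees of freedom), giving 19 comparisons of 2 groups and 5 interactions. Benjamini-Hochberg adjustment ran over all tested genes, and "called" means an adjusted p below 0.05. Values are CPM as mean ± SD over 3 libraries, or log2 fold change ± SE. The design allows no exact test of single genes below p = 0.1 with 3 against 3 libraries. Levels between genes were divided by the length of all annotated exons of a gene in GENCODE M21, with overlapping bases counted once. That length can exceed the length of the transcripts that were expressed. DESeq2 1.42.0 and the other settings in the closing section served as alternatives. The same test was also run on simulated counts of 2 groups with the same spread for every gene. That simulation lacked the 12 groups and any link between same-numbered libraries, so it does not test the fit reported here.

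Same-numbered libraries deviated together within a genotype (every correlation above 0.1) in 14 of 18 comparisons. The labels do not say what the numbers share. The value with the replicate number as a block is given beside a result where it changes the call and the numbers paired the libraries. Where they did not, or not in both genotypes of an interaction, the added calls are only named in the closing section. The members and lists were chosen with earlier results of these data known. Named genes are the 10 members, Eif2ak3, the largest called rise and fall of each list (average log2 CPM of at least 2) in DMSO between genotypes and with each single compound, and the 3 genes most like each member, of which some are not reported here. Chaperones beside Serpinh1 and other genes said to be so were chosen after their values were seen. Intervals and errors cover these libraries only.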

Additional observations from a re-analysis of the deposited data

Results flagged for a closer look

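The 2 genotypes responded differently in 21 cases, each an interaction with an adjusted p below 0.05 in edgeR's quasi-likelihood test over all tested genes. For thapsigargin against DMSO the interaction (PERK -/- response minus WT response, log2) was called for 8 of the 10 genes: P4ha1 (0.71), P4ha2 (0.63), P4ha3 (1.15), Plod1 (1.23), Plod2 (0.88), Loxl1 (0.99), Loxl2 (0.82) and Serpinh1 (0.44). For halofuginone against DMSO the interaction (PERK -/- response minus WT response, log2) was called for 4 of the 10 genes: P4ha2 (0.74), Plod1 (0.58), Plod2 (-0.41) and Serpinh1 (0.70). For BtdCPU added to thapsigargin the interaction (PERK -/- response minus WT response, log2) was called for 4 of the 10 genes: P4ha1 (-0.49), Plod2 (-0.99), Loxl1 (-0.48) and Loxl2 (-1.08). For halofuginone added to thapsigargin the interaction (PERK -/- response minus WT response, log2) was called for 5 of the 10 genes: P4ha1 (-0.9996), Plod1 (-0.55), Plod2 (-1.26), Loxl1 (-0.75) and Loxl2 (-0.99). Over all tested genes these interactions were called for 38.1% with thapsigargin, 35% with halofuginone, 20.8% with BtdCPU added and 32.7% with halofuginone added. The 21 cases are not independent, since the comparisons share DMSO or thapsigargin libraries. For BtdCPU against DMSO no interaction of these genes was called by edgeR or DESeq2, beside 0.199% of all tested genes in edgeR. An unadjusted edgeR p under 0.05 was seen there for 2 of them. Groups of 3 libraries are too small for a test of outlying samples.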

How the results depend on the processing

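No called value changed sign under any alternative. Of 240 pairs of gene and comparison, 120 were called, 102 of them in every setting that used all libraries and 85 also with each library left out in turn. DESeq2 ended 0 calls and added 5, size factors of relative log expression 1 and 1, library size alone 5 and 8, no filter on low counts 10 and 11, and fitting only the compared groups 10 and 8. The fit with a replicate block ended 0 calls and added 34 (in 4 comparisons and 2 interactions the numbers did not pair the libraries by the check, or not in both genotypes, and the added calls there are P4ha1 for BtdCPU with thapsigargin against DMSO in WT, P4ha3 and Plod2 for halofuginone, Plod3 for halofuginone with thapsigargin against DMSO and P4ha3 against thapsigargin in PERK -/- cells, and P4ha3 in both halofuginone interactions). It was not run for the genotypes in DMSO, since numbers are nested within genotype.

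Counts of called members that moved by more than 1.5 times are given here. For BtdCPU against DMSO in WT cells the count of 1 was 0 with only the compared groups, 3 with the replicate block and 0 to 3 with a library left out. BtdCPU added to thapsigargin in WT cells gave 1, then 0, 3 and 0 to 1 in the same order. Thapsigargin added to halofuginone gave 3 in WT cells, then 1, 7 and 1 to 4. In PERK -/- cells it gave 1, then 4 with the replicate block and 0 to 1 with a library left out. BtdCPU with thapsigargin against DMSO gave 3 in PERK -/- cells and 5 both with only the compared groups and with the replicate block, and in WT cells it gave 7 and ran from 4 to 8 with a library left out. Thapsigargin added to BtdCPU in PERK -/- cells gave 3 and ran from 1 to 3. The interaction of BtdCPU with DMSO gave 0, and 1 with the replicate block, and that of BtdCPU added to thapsigargin gave 4 and ran from 2 to 4. The cause was not tested.

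Counts of a member in a library ran from 212 for Loxl2 to 62930 for Serpinh1, and counting error weighs most on Loxl2 in PERK -/- cells. List medians moved by more than 0.1 in 23 of 432 cases and group levels by more than 1 SD in 18 of 240. None of the 18 was a level of Lox, whose lowest group nevertheless changed with size factors of relative log expression.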
